A study of Mus musculus with 11 samples.

Results

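The 8 genes described here are Ebf1, Pax5, Vpreb1, Cd79a, Cd79b, Blnk, Cd22 and Ms4a1, which B cells use and T cells as a rule keep silent. They were picked by name out of 21887 protein-coding genes, and every peak and segment that overlapped a gene's span or the 50 kb on either side of it was collected. The libraries are ChIP-seq (chromatin immunoprecipitation and sequencing) of 8946, a mouse leukaemia line that the labels call T-ALL, for T-cell acute lymphoblastic leukaemia. All cells carried a retroviral, epitope-tagged Zmiz1 together with a retroviral, activated Notch1. Those of the Flag line carried Flag-Zmiz1 and the L1601PDP construct, and those of the HA line HA-Zmiz1 and DEGFDLNRDP. Flag-Zmiz1, ICN1 (intracellular Notch1), Rbpj, H3K4me1, H3K4me3 and the H3K27 marks were profiled in the Flag line, and HA-Zmiz1 and ICN1 in the HA line, each line with its own input. No sample lacked the transgenes, and every target had 1 library per line, so no difference below has a replicate check and no test was made.

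Ebf1 and Pax5 encode the transcription factors that specify and then commit precursors to the B lineage. Vpreb1 encodes part of the surrogate light chain of the pre-B-cell receptor. Cd79a and Cd79b encode the signalling chains of the B-cell receptor, and Blnk the adaptor that links the receptor to downstream enzymes. Cd22 is an inhibitory co-receptor, and Ms4a1 encodes CD20, a surface protein of mature B cells. In the Notch pathway, ICN1 joins Rbpj on DNA, Zmiz1 is a PIAS-like coactivator of Notch1, and Notch signalling directs lymphoid precursors to the T lineage and away from the B lineage. H3K4me3 and H3K27ac mark active promoters, H3K4me1 marks promoter flanks and enhancers, and H3K27me3 marks genes held silent by Polycomb proteins.

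The H3K27 libraries disagreed with their labels at check genes. Of 10 developmental regulators, 9 had an end under a segment of the library labelled H3K27ac and 0 under the library labelled H3K27me3, while of 10 housekeeping genes the numbers were 0 and 10. The deposited H3K27 tables are also named the other way round from the sample labels. Both are therefore called by their labels here, and no mark is read from the names. The T-cell markers fitted the T-cell label but were not alone in this. H3K4me3 covered an end of 10 of 10 T-cell markers, such as Cd3e, Lck and Bcl11b, and of 10 of 10 housekeeping genes. It covered an end of 1 of 6 myeloid markers and of 1 of the 8 B-lineage genes, Ebf1. Of 30 other B-lineage genes, described below, it covered an end of 13 (46.6% of all coding genes). The factor libraries held 13450671 to 19048270 filtered tags, and the inputs 36404168 (Flag line) and 26791332 (HA line). Read totals of the histone libraries are not given in the sources used here.

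The promoters of 4 of the genes are shown. Listed starts of Ebf1 and Pax5 lay under a segment of the library labelled H3K27ac, and those of Cd79a and Vpreb1 did not. Each run is the 250 bases before the listed start, 5′ to 3′ on the gene's strand (RefSeq, GRCm38.p6, the same build as mm10), with CpG dinucleotides in capitals.
Ebf1, the first listed start, chr11:44617850-44618099, plus strand: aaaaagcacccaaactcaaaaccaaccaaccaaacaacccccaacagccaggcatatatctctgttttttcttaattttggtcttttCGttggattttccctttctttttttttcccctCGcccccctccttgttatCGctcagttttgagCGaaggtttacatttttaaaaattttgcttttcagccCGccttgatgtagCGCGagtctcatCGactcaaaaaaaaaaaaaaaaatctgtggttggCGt
Pax5, chr4:44710695-44710944, minus strand: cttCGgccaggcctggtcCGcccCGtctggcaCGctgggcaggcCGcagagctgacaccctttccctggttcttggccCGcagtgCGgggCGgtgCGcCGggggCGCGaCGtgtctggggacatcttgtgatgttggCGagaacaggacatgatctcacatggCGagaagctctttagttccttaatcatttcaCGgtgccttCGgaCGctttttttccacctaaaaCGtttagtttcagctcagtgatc
Cd79a, chr7:24897247-24897496, plus strand: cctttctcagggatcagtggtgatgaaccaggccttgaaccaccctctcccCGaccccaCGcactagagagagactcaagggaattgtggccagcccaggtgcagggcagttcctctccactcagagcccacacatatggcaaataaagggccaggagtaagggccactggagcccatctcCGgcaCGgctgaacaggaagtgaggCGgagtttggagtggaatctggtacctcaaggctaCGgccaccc
Vpreb1, chr16:16869256-16869505, minus strand: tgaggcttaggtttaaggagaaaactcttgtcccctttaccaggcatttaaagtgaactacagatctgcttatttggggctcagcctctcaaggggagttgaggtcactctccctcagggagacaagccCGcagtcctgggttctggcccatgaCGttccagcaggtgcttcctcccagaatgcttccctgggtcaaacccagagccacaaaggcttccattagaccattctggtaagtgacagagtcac

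The RefSeq table held 7 promoters of 6 of the genes (Ebf1 with 2), and none for Cd79b and Ms4a1. Counted over the full 300 bases (250 before and 50 after the start), the Pax5 promoter had 23 CpGs at 59.0% GC, and 21.5% of all 32841 promoters had as many. The Ebf1 promoters had 9 and 17 CpGs. The first of them was AT-rich (36.7% GC) and yet kept its CpGs, at 0.95 of the number its C and G content gives. The promoters of Cd79a (8 CpGs), Blnk (7), Cd22 (4) and Vpreb1 (2) held fewer, at 0.31, 0.37, 0.20 and 0.092 of that number. The median over all promoters was 7. All 3 listed starts of the regulators Ebf1 and Pax5 lay under a segment of the library labelled H3K27ac. The 2 Ebf1 starts shared 1 segment. Of the 4 starts of Cd79a, Blnk, Cd22 and Vpreb1, 0 lay under a segment of that library. Ms4a1, which has no listed promoter and is no regulator, had an end under a segment of that library too. Of all promoters, 15.1% had their start under such a segment. That share was 9.78% at 4 CpGs or fewer, 17.9% at 5 to 15 and 18.7% at 16 or more.

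**Figure D1:**
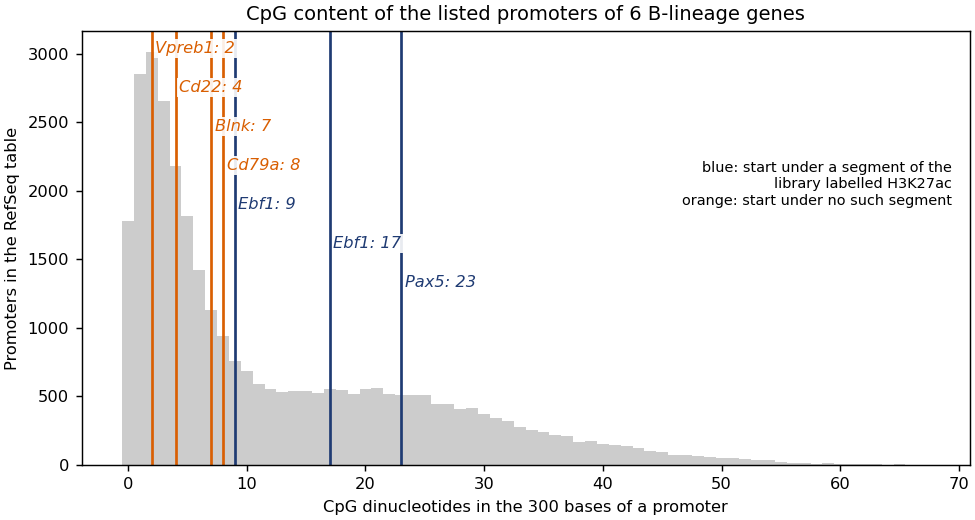
Number of CpG dinucleotides in the 300 bases of each promoter of the RefSeq table (grey bars, 32841 promoters), with vertical lines for the 7 listed promoters of 6 B-lineage genes. The blue lines, Ebf1 at 9 and 17 and Pax5 at 23, are starts under a segment of the library labelled H3K27ac. Both Ebf1 starts lie under the same segment. The orange lines, at 2 to 8, are starts under no such segment.

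Short motifs were searched in these 300-base windows on both strands, as letters and not as sites. The E box CANNTG was in 6 of the 7 promoters and in 72.3% of all promoters. The Rbpj word TGGGAA was in the promoter of Cd22 and in that of the second Ebf1 start (25.6% of all promoters), where no Rbpj peak overlapped. Cd22 also held the EBF palindrome, which is TCCC, any 2 letters and GGGA (0.904% of all promoters), Blnk the octamer ATTTGCAT (1.74%), and the first Ebf1 start the Runx word TGTGGT (16.8%). The Rbpj and EBF words can overlap in their GGGA letters.

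Over the 5 factor lists, 29 peaks lay within 50 kb of the 8 genes, and 1 of them touched a gene (24.4% over the windows of all coding genes). The whole lists held 581 Flag-Zmiz1, 4984 HA-Zmiz1 and 20993 Rbpj peaks. ICN1 had 82 in the Flag line, 29 of them under 10 times the mean input, and 414 in the HA line. No Flag-Zmiz1 peak was listed near any of the 8 (4.06% of coding genes had one), and no ICN1 peak of the Flag line (0.215%). HA-Zmiz1 had 6 peaks near 4 of the 8 genes (27.8% of coding genes), and ICN1 of the HA line 1 peak, near Blnk (3.42%). Rbpj had 22 peaks near 6 of the 8 (67.2%). Read against these shares, counts over 8 genes do not set them apart. Of the 29 peaks, 27 lay in or nearer to another gene, and the 2 that did not were Rbpj peaks, at Ebf1 and in Pax5. Rbpj touched 1 of the 8 gene spans (39.3% of coding genes). HA-Zmiz1 touched 0 (8.36%), as did ICN1 of the HA line (0.804%), Flag-Zmiz1 (1.02%) and ICN1 of the Flag line (0.0685%).

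All 6 HA-Zmiz1 peaks in these windows overlapped an Rbpj peak, an H3K4me3 segment and a segment of the library labelled H3K27me3, although those 3 libraries came from the other line. Over its whole list 71.3% of HA-Zmiz1 peaks overlapped Rbpj, 93.2% H3K4me3, 93.6% the library labelled H3K27me3 and 1.93% the library labelled H3K27ac, which 0 of the 6 did. Of the 22 Rbpj peaks, 6 overlapped HA-Zmiz1 (16.9% of the whole list). Further, 18 lay in H3K4me3 segments (87.3% of the whole list) and 4 in segments of the library labelled H3K27ac (5.31%). Those 4 were at Ebf1, in Pax5, near Erfl in the Cd79a window and at Zfp518a in the Blnk window. Local input was worked out from each peak's pileup and fold and was not counted from input reads. Under these 29 peaks it was at most 4.89 times the genome mean given by the library's tag count.

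**Figure D2:**
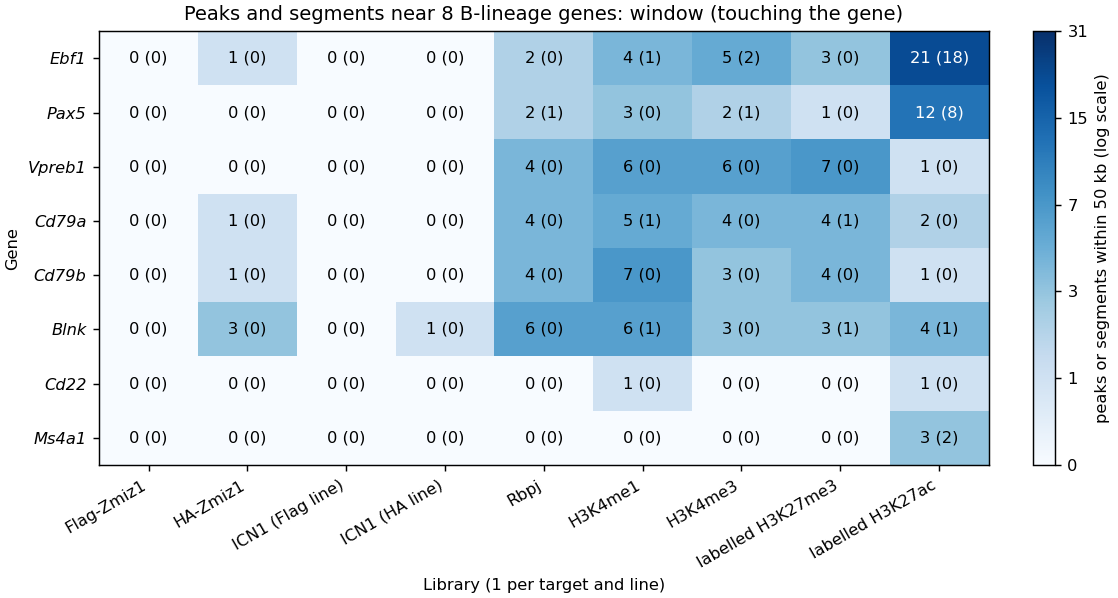
Number of peaks (first 5 columns) or segments (last 4 columns) within 50 kb of each gene, with the number touching the gene in brackets; shading follows the first number on a log scale. The library labelled H3K27ac has its highest counts at Ebf1 (21, of which 18 touch the gene) and Pax5 (12, of which 8 do), whose windows are the longest. Per 100 kb of window these are 4.29 and 4.20, against 2.58 at Ms4a1 and 2.42 at Blnk. Cd22 and Ms4a1 have 0 in all 5 factor columns.

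Ebf1 spans 390 kb on chromosome 11 (44618100 to 45008096, plus strand), and the library labelled H3K27ac was spread along it. That library had 21 segments in the window, and 18 touched the gene (24.6% of coding genes, and 45.5% of those of 100 kb or more, had such a segment). They covered 28.5% of the span, and 7.99% of coding genes of 100 kb or more were covered as much. The strongest ran for 30.2 kb over both listed starts, from 10.3 kb before the first to 19.9 kb after it, with 1645 reads against 563 in the control, a fold of 5.31 (exact 95% interval 4.83 to 5.86) and a place at the 98.6th percentile of its list. Segments farther into the gene had lower folds, such as 3.57 for one of 13.8 kb and 1.53 for one of 3 kb. The library labelled H3K27me3 touched no base of Ebf1, where 52.2% of coding genes were touched.

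The first Ebf1 start also carried H3K4 methylation inside that broad segment. An H3K4me3 segment of 1.80 kb (chr11:44617001-44618800) had 123 reads against 45, a fold of 4.19 (2.96 to 6.04), which is at the 46.6th percentile of its list. An H3K4me1 segment of 2.60 kb had a fold of 2.06 (1.49 to 2.87). Both lay wholly within the segment of the library labelled H3K27ac. An Rbpj peak of 74 bp (chr11:44617131-44617204) had its summit 934 bp before the first start, with a pileup of 10 tags, a fold of 6.35 and a −log10 p of 9.39 as deposited, close to the middle of the Rbpj list (48.4th percentile of fold). It fell in the H3K4me3 segment and outside the 300-base promoter windows. At the far end of the gene a 400-bp H3K4me3 segment with 29 reads against 11 (fold 4.04, 1.96 to 8.97) lay within another segment of the library labelled H3K27ac. Among all H3K4me3 segments 10.8% overlapped that library, and among the 23 in the windows of the 8 genes 4 did. The numbers were 2 of 32 for H3K4me1 (7.11% of all its segments) and 1 of 22 for the library labelled H3K27me3 (2.88%).

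A region of a different kind lay 40 kb upstream of Ebf1, between Ebf1 and Rnf145, a ubiquitin ligase gene. The library labelled H3K27me3 had a segment of 12.2 kb there (chr11:44571801-44584000) with 1486 reads against 286, a fold of 8.09 (7.12 to 9.21) and the 98.6th percentile of its list. H3K4me1 covered 13.4 kb at a fold of 4.09 (3.61 to 4.65), and H3K4me3 had 3 smaller segments with folds of 2.79 to 5.18. An HA-Zmiz1 peak (chr11:44578065-44578289, fold 10.3, 90.6th percentile, 27 tags) and an Rbpj peak (fold 7.61, 18 tags) met inside it. Their summits were 40.0 kb before the Ebf1 start, and the HA-Zmiz1 peak lay 12.5 kb past the end of Rnf145. The nearest listed start of a coding gene was that of Ebf1, and no ICN1 peak of either line was listed there. Which gene the region acts on was not tested.

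Pax5, on chromosome 4 (44524748 to 44710694, minus strand, 186 kb), resembled Ebf1. The library labelled H3K27ac had 12 segments in the window, of which 8 touched the gene and together covered 31.5% of it, and 7.37% of coding genes of 100 kb or more were covered as much. The strongest was 31 kb wide, from 7.71 kb before the start to 23.3 kb after it, with 1296 reads against 520, a fold of 4.53 (4.09 to 5.03) and the 96.6th percentile. No H3K4me1 segment and no segment of the library labelled H3K27me3 touched the gene, and H3K4me3 did not cover its start.

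The 1 factor peak within a member gene was in Pax5. This Rbpj peak (chr4:44704369-44704546) had its summit 6.22 kb into the gene, a pileup of 18 tags, a fold of 9.28 and a −log10 p of 17.1, at the 84.5th percentile of fold. It lay in an H3K4me3 segment of 1.20 kb with 39 reads against 22, a fold of 2.72 (1.57 to 4.82), which is low in its list (24.4th percentile), and both lay within the 31 kb segment of the library labelled H3K27ac. The other Rbpj peak of the window (fold 9.01) was 45.8 kb upstream, with its summit 8 bp after the start of Zcchc7, an RNA-processing gene, which had a strong H3K4me3 segment (1273 reads against 88, fold 22.2, 17.9 to 27.9). On that side the segments of the library labelled H3K27ac ended 4.96 kb short of Zcchc7, whose start lay in the library labelled H3K27me3 instead (fold 7.93, 6.01 to 10.6).

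**Figure D3:**
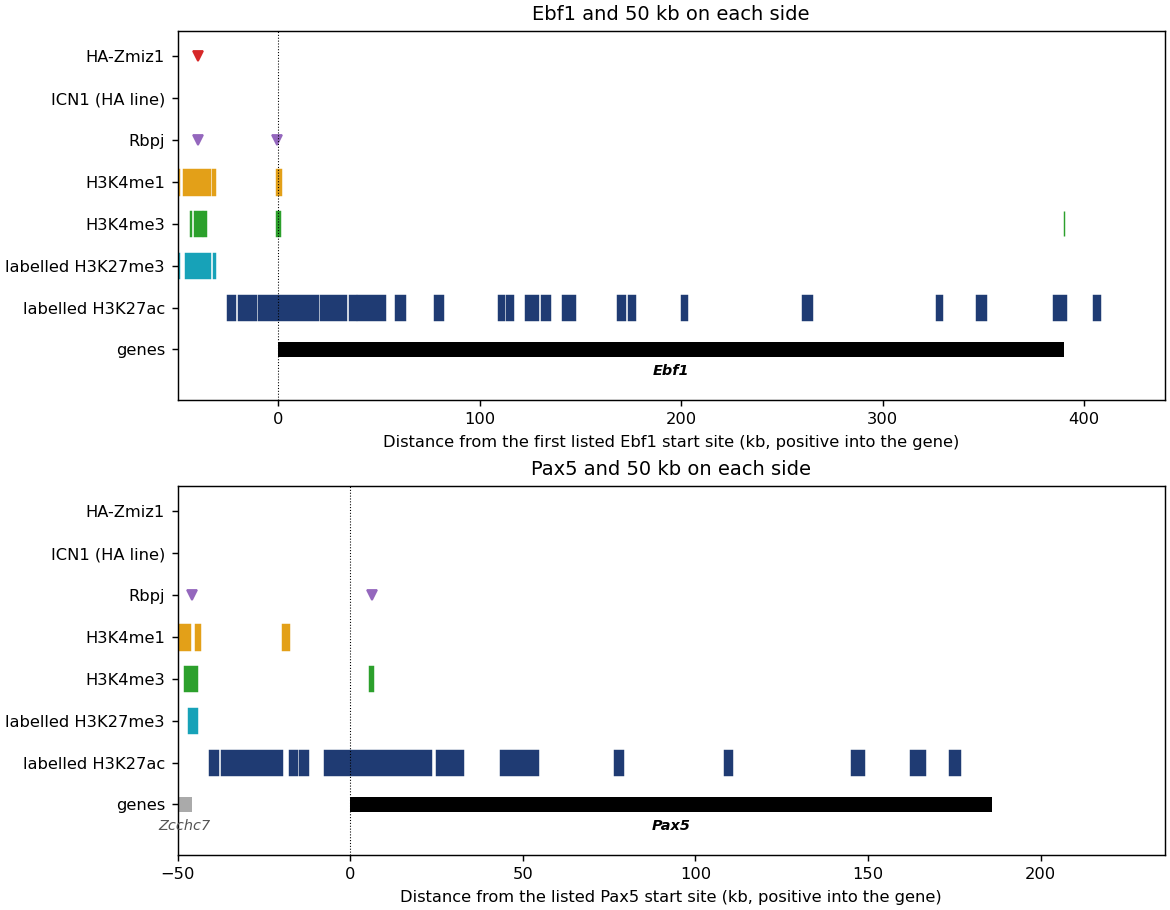
Peaks (triangles) and segments (bars) along Ebf1 (top) and Pax5 (bottom), each with 50 kb on either side, by distance from the start site in kb; black bars are the genes and the grey bar is a neighbour. Segments of the library labelled H3K27ac crowd around each start and thin out into the gene, Rbpj lies 0.934 kb before the Ebf1 start and 6.22 kb into Pax5, and the region 40 kb before Ebf1 carries HA-Zmiz1 and Rbpj.

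Vpreb1 is a short gene of 855 bp on chromosome 16 (16868401 to 16869255, minus strand), and it sat between segments of 3 histone libraries without being covered by any. Downstream of it, a segment of the library labelled H3K27me3 (chr16:16863401-16868200, 4.80 kb) had 558 reads against 114, a fold of 7.62 (6.22 to 9.40, 97.97th percentile), and an H3K4me1 segment of 4.40 kb had a fold of 5.23 (4.21 to 6.55), at the 99.4th percentile of its list. Both covered the start of Igll1, which encodes the other part of the surrogate light chain, and stopped 201 bp short of Vpreb1. Of the span of Igll1, 78.0% lay in the library labelled H3K27me3 and none in the library labelled H3K27ac. H3K4me3 was found between the genes (2.20 kb, fold 4.81, 3.50 to 6.70) and not at the Igll1 start.

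On the other side, segments of H3K4me1 and of the library labelled H3K27me3 began 146 bp before the Vpreb1 start. The latter, of 6.40 kb, ran into Top3b, a topoisomerase gene read in the opposite direction, with a fold of 4.15 (3.46 to 4.99), where H3K4me3 had a fold of 18.9 (14.7 to 24.6). The space free of these 2 libraries was 1200 bp and held the whole of Vpreb1. The Flag-line tables are named for uniquely mapped reads, and Vpreb1 has a closely similar copy, Vpreb2, where the 4 histone libraries also listed no touching segment. The space around Vpreb2 was far wider for H3K4me1 (40200 bp) and the library labelled H3K27me3 (130000 bp). For the library labelled H3K27ac it was narrower, 12400 bp against 379400 bp around Vpreb1. How far reads lost to the copy bear on the 1200 bp space at Vpreb1 was not tested. The 4 Rbpj peaks of the window lay in other genes: 1 at Top3b (fold 9.77, summit 49 bp after its start) and 3 in Ppm1f (folds of at most 7.86), a phosphatase gene. The single segment of the library labelled H3K27ac was weak (fold 1.70, 1.30 to 2.22) and 42.4 kb away in Spag6l.

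Cd79a (chromosome 7, 24897497 to 24901858, plus strand) stood between neighbours with strong H3K4me3. Its start was under no segment of the 4 histone libraries. A segment of the library labelled H3K27me3 that covered the start sites of Arhgef1 reached back over the last 24.3% of Cd79a (8.20 kb, 705 reads against 212, fold 5.17, 4.43 to 6.06), and an H3K4me1 segment of 1.00 kb (fold 3.99, 2.56 to 6.39) touched the last 1.33% of it. H3K4me3 at Arhgef1 (6 kb, fold 15.4, 13.2 to 18.05) began 143 bp past the end of Cd79a. On the upstream side, the ribosomal protein gene Rps19 carried H3K4me3 at a fold of 16.4 (13.7 to 19.6), which ended 9.50 kb before Cd79a.

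Of the 5 factor peaks in the Cd79a window, 4 were at Rps19 or Arhgef1. The HA-Zmiz1 peak (fold 6.24, 10 tags) had its summit 120 bp before the first listed Rps19 start, inside an Rbpj peak of 357 bp (fold 4.98), and a second Rbpj peak lay 524 bp before that start (fold 6.35). The strongest Rbpj peak of the window (fold 10.17, 89.1st percentile) had its summit 82 bp before an Arhgef1 start. The last peak, of Rbpj, was 5.70 kb before the start of Erfl, in a segment of the library labelled H3K27ac of 17.6 kb (fold 5.43, 4.72 to 6.28). The HA-Zmiz1 peak is shown whole because it is the peak of that list nearest to a start in these windows, on the Rps19 strand, with no part in capitals since neither the word TGGGAA nor its reverse complement was in it.
HA-Zmiz1 peak before Rps19, chr7:24884437-24884529, plus strand: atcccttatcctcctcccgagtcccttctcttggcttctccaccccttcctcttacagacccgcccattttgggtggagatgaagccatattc

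Cd79b (chromosome 11, 106311341 to 106314562) was touched by no peak or segment of any of the 9 lists. The nearest on either side were an H3K4me1 segment that began 2.24 kb away in the sodium channel gene Scn4a (fold 2.60, 1.90 to 3.60), and another 2.94 kb away on the side of the growth hormone gene Gh (fold 2.42, 1.80 to 3.29). Small H3K4me3 segments 3.44 and 3.54 kb away had 28 reads each (folds 2.68 and 2.26). The HA-Zmiz1 peak (fold 8.01, 14 tags) and an Rbpj peak that contained it (fold 6.08) were 42.0 and 41.9 kb away in Smarcd2, a chromatin-remodelling subunit gene, under an H3K4me3 segment of 5.80 kb (fold 14.7, 12.6 to 17.3). The other 3 Rbpj peaks (folds 5.86 to 9.31) were in Gh, in Scn4a and where Smarcd2 and Tcam1 meet.

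Blnk (chromosome 19, 40928927 to 40994221, minus strand, 65.3 kb) had the most factor peaks in its window, 10, and none in the gene. The gene held 1 small segment of H3K4me1 (1.40 kb, fold 3.63, 2.39 to 5.65), an overlapping one of the library labelled H3K27me3 (1.60 kb, fold 3.28, 2.19 to 4.99), both near its far end, and 1 of the library labelled H3K27ac (2.60 kb, fold 2.54, 1.64 to 3.95). Its start was under none of the 4 histone libraries. Nearest to that start were 2 H3K4me1 segments, 3.78 and 12.4 kb upstream (folds 2.02 and 2.65).

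The peaks of the Blnk window belonged in position to Dntt, which encodes the polymerase that adds bases to receptor gene joints in T- and B-cell precursors. Blnk and Dntt are read away from each other, and a segment of the library labelled H3K27me3 50.6 kb wide (6884 reads against 1356, fold 7.90, 7.45 to 8.38) began 19.6 kb upstream of Blnk and ran across Dntt. Within it, 3 HA-Zmiz1 peaks (folds 7.73 to 8.52) and 5 Rbpj peaks (folds 5.25 to 10.3) were listed. The ICN1 peak of the HA line (chr19:41022281-41022446, 12 tags, fold 5.19, −log10 p of 8.09) overlapped an HA-Zmiz1 peak (fold 8.52, 27 tags) and an Rbpj peak (fold 6.28, 25 tags), with its summit 28.2 kb before the Blnk start and 6.87 kb before the Dntt start. It was the only ICN1 peak in the 8 windows, was weak for its list (23.4th percentile of fold), and was not kept at a −log10 p of 10. The remaining Rbpj peak was at the start of Zfp518a, 34.2 kb beyond the far end of Blnk.

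**Figure D4:**
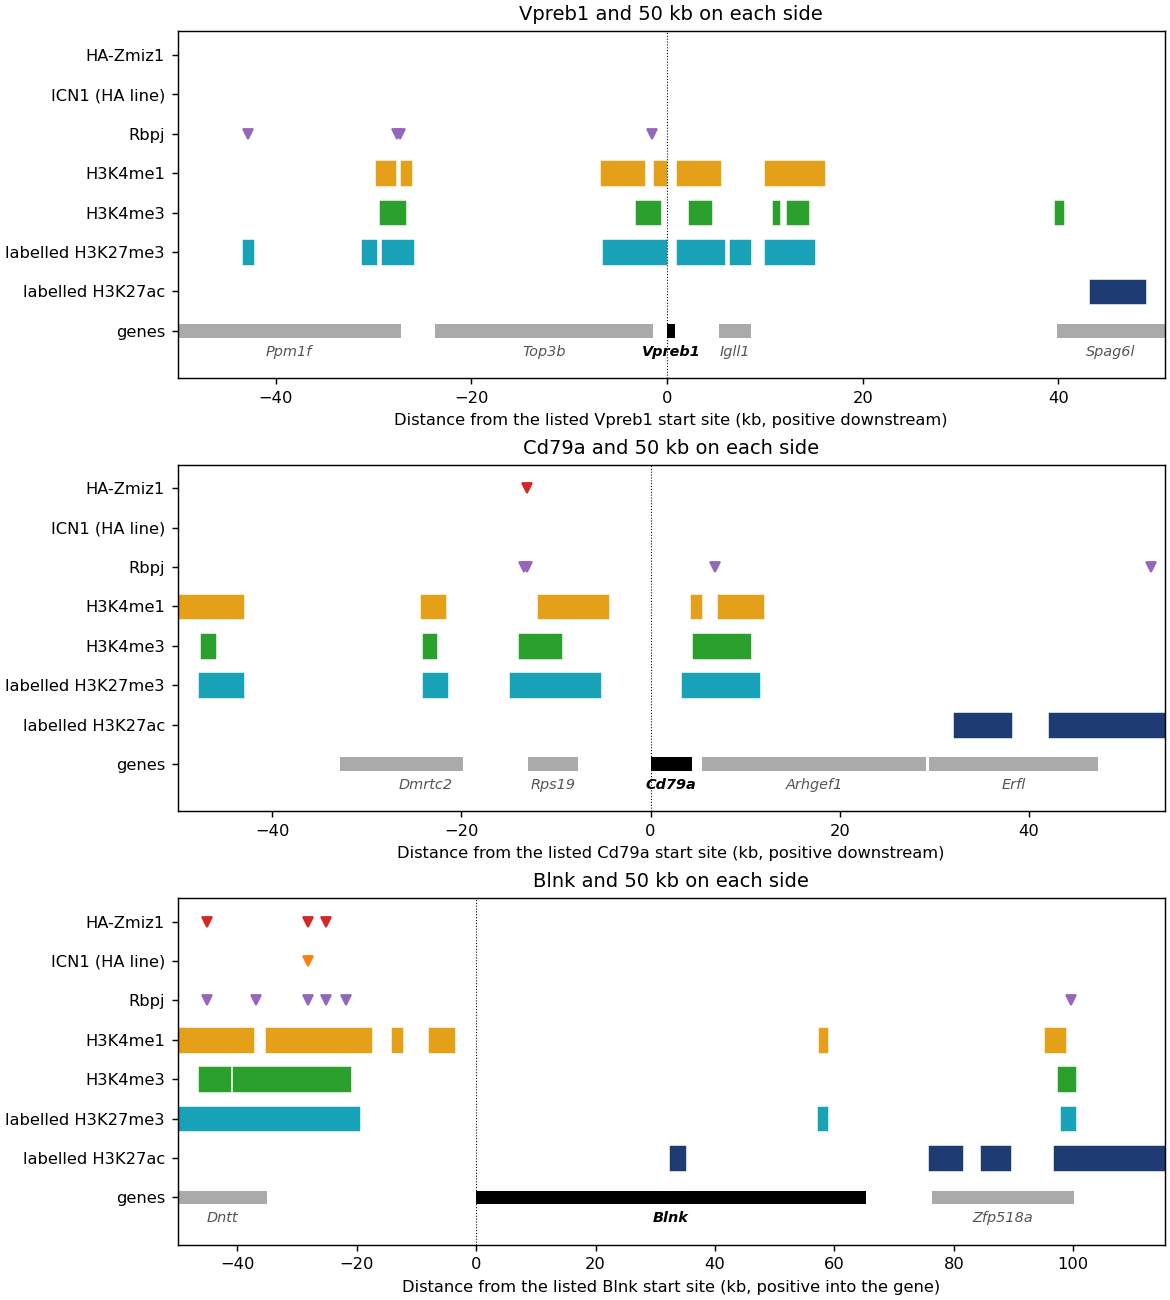
Peaks (triangles) and segments (bars) around Vpreb1, Cd79a and Blnk (black), each with 50 kb on either side, by distance from the start site in kb; grey bars are neighbouring genes. Most segments of H3K4me3 and of the library labelled H3K27me3 fall on or beside Igll1, Top3b, Rps19, Arhgef1 and Dntt, and the ICN1 peak of the HA line lies 28.2 kb before the Blnk start.

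Cd22 and Ms4a1, the surface proteins, lay in windows with almost nothing listed. Cd22 (chromosome 7, 30865404 to 30880342) had an H3K4me1 segment 8.66 kb away (fold 2.36, 1.72 to 3.26) and a weak segment of the library labelled H3K27ac 12.6 kb away (fold 1.69, 1.29 to 2.22), and no segment touched the gene. Ms4a1 (chromosome 19, 11249679 to 11266149) had 3 segments of the library labelled H3K27ac and no other region. Of these, 2 touched the gene and covered 31.3% of it, close to the 31.5% of Pax5, and the second ran over an end of the gene, but they were small (2.80 kb at a fold of 2.54, 1.69 to 3.85, and 3 kb at 2.47, 1.71 to 3.59) and rested on 60 and 72 reads. Windows without Rbpj, H3K4me3 and the library labelled H3K27me3, as for these 2 genes, were those of 24.2% of all coding genes.

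Over the 8 genes, the library labelled H3K27ac was listed in every window and the other 3 histone libraries in most. For Vpreb1, Cd79b and Cd22 this was 1 weak segment each (folds 1.70, 1.89 and 1.69), in or nearer to another gene. In the upper 50% of that list by fold, 5 of the 8 windows kept a segment (48.3% of coding genes). Within 50 kb, H3K4me1 was near 7 of 8 genes (74.1% of coding genes), H3K4me3 near 6 (73.8%), the library labelled H3K27me3 near 6 (72.0%) and the library labelled H3K27ac near 8 (58.0%). Touching the gene itself, they were at 3 (55.4%), 2 (56.0%), 2 (52.2%) and 4 (24.6%) of 8, and over an end of the gene at 2 (23.8%), 1 (46.6%), 1 (43.1%) and 3 (18.9%). The median share of the span covered was 0% for H3K4me1, H3K4me3 and the library labelled H3K27me3, against 4.36%, 2.35% and 1.52% over all coding genes, and 1.99% for the library labelled H3K27ac, against 0%. Of the windows, the median share in the library labelled H3K27ac was 12.6%, against 3.07% over all coding genes. Of the 77 segments of the first 3 libraries in the windows, 8 touched the gene (30.6% over the windows of all coding genes), and of the 45 of the library labelled H3K27ac 29 did (30.1%). Of those 29, 18 were in Ebf1 and 8 in Pax5, and in the windows of coding genes of 100 kb or more that share was 66.9%.

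**Figure D5:**
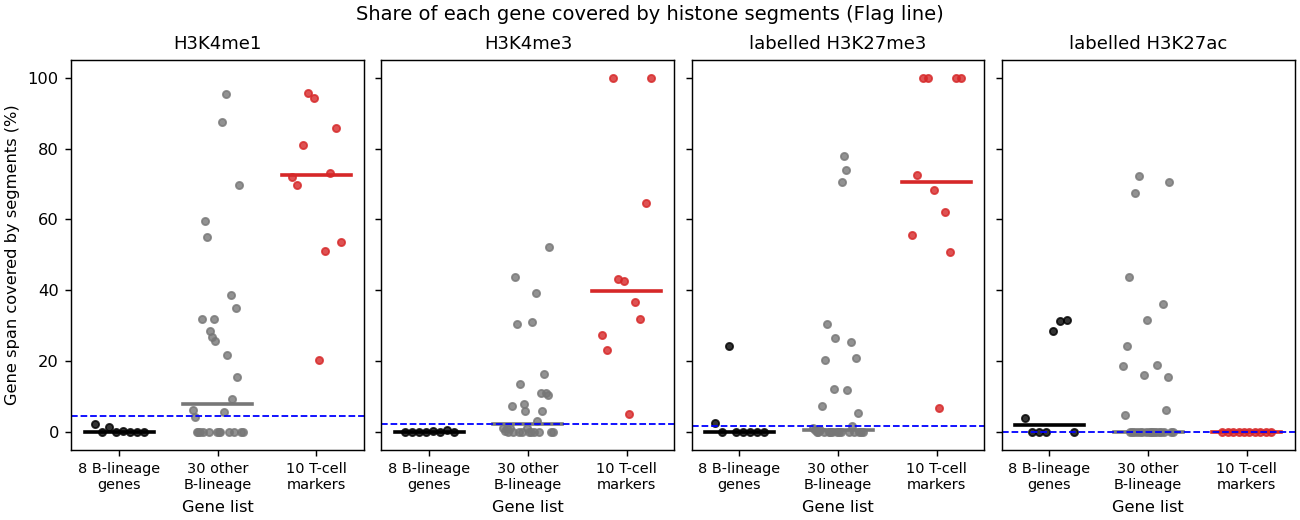
Share of each gene's span covered by segments of the 4 histone libraries, for the 8 B-lineage genes, 30 other B-lineage genes and 10 T-cell markers; points are genes, short bars medians and the dashed line the median of all coding genes. The 8 genes sit at or near 0% for H3K4me1 and H3K4me3, 3 of them reach 28.5% to 31.5% in the library labelled H3K27ac, and the T-cell markers are at 0% there.

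The T-cell markers differed from the 8 genes in the same measures. All 10 were touched by the library labelled H3K27me3 (median 70.4% of the span) and 0 by the library labelled H3K27ac. Of 30 other genes of the B lineage, fixed as a list with earlier results known, 20 were touched by H3K4me3 (56.0% of coding genes), 16 by the library labelled H3K27me3 (52.2%) and 13 by the library labelled H3K27ac (24.6%). Those most covered by the library labelled H3K27me3 were Igll1 (78.0% of the span), Irf4 (74.1%), Foxo1 (70.5%), Cd37 (30.5%), Ciita (26.4%) and Pou2af1 (25.4%). Irf4 and Foxo1 encode transcription factors that T cells use as well. Those most covered by the library labelled H3K27ac were Cd40 (72.2%), Tnfrsf13c (70.4%), Cd24a (67.3%), Blk (43.7%), Pou2f2 (36.2%) and Cr2 (31.6%), which include the receptors for CD40 ligand, for the survival factor BAFF and for complement. H3K4me1 and H3K4me3 also covered much of Tnfrsf13c (69.7% and 52.3%) and Cd24a (59.5% and 43.8%). They covered less of Pou2f2 (9.25% and 5.99%) and Cr2 (0% and 1.20%), and none of Cd40 and Blk. Rbpj was within 50 kb of 29 of the 30 (67.2% of coding genes) and HA-Zmiz1 of 14 (27.8%). ICN1 of the HA line was near 1, Btk (3.42%), and Flag-Zmiz1 (4.06%) and ICN1 of the Flag line (0.215%) were near 0.

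Genes elsewhere in the genome with the most similar window were found by the distance between percentile ranks of 9 values, 1 per library (share of the window covered or peaks per 100 kb). Nearest to Ebf1 was Kifc3 (distance 6.35), with 27.1% of its window in the library labelled H3K27ac against 28.3% for Ebf1, and nearest to Pax5 was Copg2 (3.21), with 29.3% against 32%. The nearest to Vpreb1, Cd79a, Cd79b and Blnk were Zfp768, Chmp1b, Galr2 and Pkd2l1 (distances 7.85, 6.85, 9.35 and 9.72). Those of Cd22 and Ms4a1 were Plac8l1 and Casq2 (0.529 and 0.0366), where most of the 9 values were 0.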

How the data were processed

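The submitters' processing notes name the mm10 build, Bowtie 0.12.7, MACS2 2.0.10 and SICER 1.1. Per the file headers, MACS 2.0.10.20120913 called the peaks, each line against its own input (p limit 1e-05, 1 tag kept per position), on pooled reads in the HA line. Each peak has the authors' pileup signal, −log10 p and fold ratio over the local input. Input given as times the mean was worked out from pileup and fold. The mean came from the precipitation's tag count, fragment length and genome size. Segments have deposited read counts of precipitation and control, a p-value, a fold ratio and a false discovery rate of at most 0.001, and widths in steps of 200 bp. The control of the segments and their read totals are not given in the sources used here. These scores describe or rank regions within their own list.

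Regions within 50 kb of a gene span (RefSeq, GRCm38.p6) were taken at 1 bp of overlap with Python 3.11.15 and pandas 2.3.3, all 8 symbols matching. Percentages of coding genes use the same rule, and the overlap code was tested on simulated data. Fold intervals are exact (Clopper-Pearson, SciPy 1.17.1, 95%) from the deposited counts, scaled as in each list, and cover counting error only. A listed region shows presence, and an unlisted one falls short of the authors' threshold, with no limit of its own. The members and gene lists were chosen with earlier results of these data known. Named were the 8 genes, the neighbours of their regions, 6 other B-lineage genes per H3K27 library and the genes of most similar pattern, 1 of the 2 nearest being printed.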

Additional observations from a re-analysis of the deposited data

How the results depend on the processing

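No paired analysis was possible because each target and line has 1 library. Values are given for Flag-Zmiz1, HA-Zmiz1, ICN1 of the Flag line, ICN1 of the HA line, Rbpj, H3K4me1, H3K4me3 and the libraries labelled H3K27me3 and H3K27ac, in that order. With the gene span alone, 0, 0, 0, 0, 1, 3, 2, 2 and 4 of the 8 genes had a region, and there were 0, 0, 0, 0, 1, 3, 3, 2 and 29 regions. With 5 kb on either side the genes were 0, 0, 0, 0, 4, 5, 5, 4 and 4, and the regions 0, 0, 0, 0, 4, 11, 8, 6 and 29. The shares of all coding genes were then 1.36%, 12.1%, 0.0822%, 1.21%, 48.7%, 60.8%, 60.0%, 56.6% and 32.2%. With 200 kb the genes were 1, 4, 0, 2, 7, 8, 8, 8 and 8, and the regions 2, 15, 0, 2, 66, 115, 65, 87 and 91. At that width the shares of all coding genes were 12.2%, 52.6%, 0.717%, 9.84%, 80.9%, 84.2%, 84.6%, 84.1% and 77.9%. Of the 29 factor peaks, 1 was thus in a gene span. At a −log10 p of 10 or more the ICN1 peak of the HA line was lost (0 genes, 0 regions, 1.89% of coding genes). HA-Zmiz1 then kept 5 peaks near 3 genes (16.6% of coding genes) and Rbpj 16 near 6 (58.2%). In the upper 50% of segments by fold there were 18, 11, 13 and 27 segments of the 4 histone libraries, near 6, 6, 6 and 5 genes. Such segments were near 67.0%, 69.5%, 68.0% and 48.3% of coding genes. Counting summits or centres, and leaving out peaks at 10 or more times the mean input, moved no count by over 1.5 times. Without replicates, the precision of a region rests on its own reads, which were 10 to 31 tags at the summit of a peak.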
